A study of Mus musculus with 6 samples.

Results

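The 10 genes described here encode the core of antigen presentation by the major histocompatibility complex (MHC). They were chosen by symbol from 23235 genes in the deposited table, with earlier results of these data known. Of the 10 genes, 4 belong to class I (*H2-K1*, *H2-D1*, *B2m* and *Tapbp*), 5 to class II (*Cd74*, *H2-Aa*, *H2-Ab1*, *H2-Eb1* and *H2-DMa*), and *Ciita* is the class II regulator. All 10 passed the filter for testing, a mean of at least 1 FPKM over the libraries, *Ciita* narrowly with a mean of 1.13 FPKM. The *Ciita* mean was 0.824 FPKM in knockout and 1.44 FPKM in WT cells, so it passed only through its WT mean. FPKM divides the fragments of a gene by transcript length and library size, so levels of different genes can be set side by side within a library. The cells were LT-HSCs, long-term blood-forming stem cells sorted from bone marrow, taken from Hmces knockout mice (3 libraries) and wild-type (WT) mice (3 libraries). Both genotypes were listed as C57BL/6, aged 2 months, with 1500 sorted cells going into each RNA preparation and no treatment of the animals recorded. The labels do not state the type of Hmces allele, the number of mice behind each library or the sort gates. HMCES is known as a sensor of abasic DNA lesions, and the study's title places it in genome integrity and stem cell self-renewal under stress.

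MHC class I molecules display peptides from proteins made inside the cell to CD8 T cells and are found on nearly every nucleated cell. Each consists of a heavy chain, such as those of *H2-K1* and *H2-D1*, paired with beta-2 microglobulin, and peptides cut by the proteasome reach it through the TAP transporter and the loading factor tapasin. Class II molecules display peptides from endocytosed material to CD4 T cells and are best known on B cells, dendritic cells and macrophages. Their alpha and beta chains assemble on the invariant chain encoded by *Cd74*, and H2-DM exchanges its last fragment for peptide. Class II transcription depends on the co-activator CIITA and class I transcription is raised by the related NLRC5. Both act through factors bound to a shared promoter module of X and Y boxes. Haematopoietic stem cells are known to carry class I, and class II has been described on them as well.

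That module can be read in the RefSeq promoter sequences of the genes (assembly GRCm38.p6), where a window covers 250 bases before to 50 bases after a transcription start. The following stretches are shown because they hold the arrangement by which class I and class II genes can answer to related regulators. They are printed on the strand of the gene, with capitals marking a TGANG, as in the CREB-binding part of the X box, and an ATTGG, the Y box bound by NF-Y. Where matches to TGANG overlap, only the first is marked. In *H2-D1* the marked TGATG overlaps a TGACG, the letters marked in *H2-K1* and *B2m*, which runs on into the lower-case bases.
*H2-K1* (chr17:34000355-34000400, minus strand): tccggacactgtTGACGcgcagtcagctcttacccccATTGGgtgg
*H2-D1* (chr17:35262978-35263026, plus strand): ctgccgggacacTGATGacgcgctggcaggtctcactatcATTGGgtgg
*B2m* (chr2:122147597-122147642, plus strand): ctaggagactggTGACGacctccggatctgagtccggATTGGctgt
*H2-Aa* (chr17:34287863-34287909, minus strand): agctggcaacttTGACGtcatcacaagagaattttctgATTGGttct
*H2-Eb1* (chr17:34305769-34305816, plus strand): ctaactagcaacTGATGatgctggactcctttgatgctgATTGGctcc

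TGANG followed by ATTGG after 15 to 25 bases, searched on both strands, was present in 5 of the 7 members with a window in the table and in 2.79% of all 32851 windows. The spacing was set with these promoters in view. *Tapbp* and *H2-DMa* held ATTGG without the pair, and ATTGG alone was present in 37.4% of windows. Outside the 10 genes the pair was found in the windows of *H2-Eb2*, *H2-DMb1*, *H2-DMb2* and *H2-Ob* of class II, and of *H2-Q4*, *H2-Q6*, *H2-Q7* and *H2-M3* of class I. It was also found in that of *Jak1*, a gene of interferon gamma signalling. The classical heavy chain genes differed from the class II genes in a second stretch, shown because it holds letters of the kappaB and interferon response elements known from class I promoters. Capitals mark the kappaB letters (4 G, ATT, 4 C) and, in *H2-K1* and *H2-D1*, a match to GAANNGAAA read on the opposite strand. In *B2m* they mark GAAA, any 2 bases and GAAA, a longer form that overlaps GAANNGAAA in part.
*H2-K1* (chr17:34000425-34000462, minus strand): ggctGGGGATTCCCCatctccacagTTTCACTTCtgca
*H2-D1* (chr17:35262919-35262956, plus strand): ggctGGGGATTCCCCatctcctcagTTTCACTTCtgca
*B2m* (chr2:122147544-122147561, plus strand): acatGAAACTGAAAatgg

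Searched on both strands, the kappaB letters were present in 0.0304% of all windows, GAANNGAAA in 7.52% and the longer form in 3.44%. *H2-Q6* was the only other gene of the lists with the kappaB letters. None of the 3 class II members with a window held any of these letters. A match describes the letters in these windows and is not evidence of binding.

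The spacing of the lowest FPKM values gave an estimated depth of 9300000 to 11200000 fragments in Hmces knockout libraries and 9700000 to 14200000 fragments in WT libraries. *Hmces*, listed as 8430410A17Rik, stood at 8.95, 0.222 and 6.95 FPKM in knockout libraries, against 39.5, 45.4 and 41.0 FPKM in WT libraries, in the direction of the labels. All 12 LT-HSC markers examined were above 0 in every library, and their sum was 705 to 725 FPKM in knockout and 562 to 609 FPKM in WT libraries. Of the 10 tested, 5 had positive and 5 negative log2 fold changes and none was called, with *Esam* the farthest apart at 134 ± 18.0 FPKM in knockout and 66.0 ± 4.87 FPKM in WT cells (limma adjusted p = 0.0702). *Flt3* and *Cd48*, whose proteins are normally low or absent on LT-HSCs, were also abundant, *Flt3* at 136 to 151 FPKM in knockout and 121 to 151 FPKM in WT libraries, and *Cd48* at 263 to 307 FPKM in knockout and 145 to 219.5 FPKM in WT libraries. Neutrophil markers summed to 18492 to 24856 FPKM in knockout libraries, against 6528 to 10300.4 FPKM in WT libraries. All 10 were tested, and for each the knockout libraries lay wholly above the WT libraries, against 7.47% of all genes tested. Of the 10, 2 were called higher in knockout cells, against 0.104% of all genes. These were *Mpo* and *Ctsg* (limma adjusted p = 0.0307 and 0.0494). *Elane* had the largest ratio, 31.9, and was not called (limma adjusted p = 0.115). In bulk samples, fewer cells of a type and less RNA per cell cannot be told apart.

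The test called none of the 10 MHC genes different between Hmces knockout and WT stem cells. The ratio of the means lay between 0.882 and 1.18 for 7 of them and was 0.628 for *H2-Aa*, 1.7 for *H2-Eb1* and 0.573 for *Ciita*, whose intervals are wide. The classical heavy chains and *B2m* were the most abundant, the class II chains were present at a few percent of the heavy chain level, and *Ciita* stood at about 1 FPKM. Across all genes limma called 13 of 11532 at an adjusted p under 0.05, or 0.113%, with 0.104% higher and 0.00867% lower in knockout cells, so a count of 0 among 10 members is near the background. An unadjusted p under 0.05 was reached by 1 of the 10 members, *H2-Eb1*, against 9.16% of all genes tested. The libraries of the genotypes did not overlap for 1 of the 10, *H2-K1*, against 15.8% of all genes tested. Knockout libraries lay wholly below WT libraries for 8.34% of all genes and wholly above them for 7.47%. The median log2 fold change, computed on log2(FPKM + 1) as Hmces knockout minus WT, was -0.04 over the class I members and -0.10 over the class II members with *Ciita*, beside -0.01 over all genes tested.

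**Figure D1:**
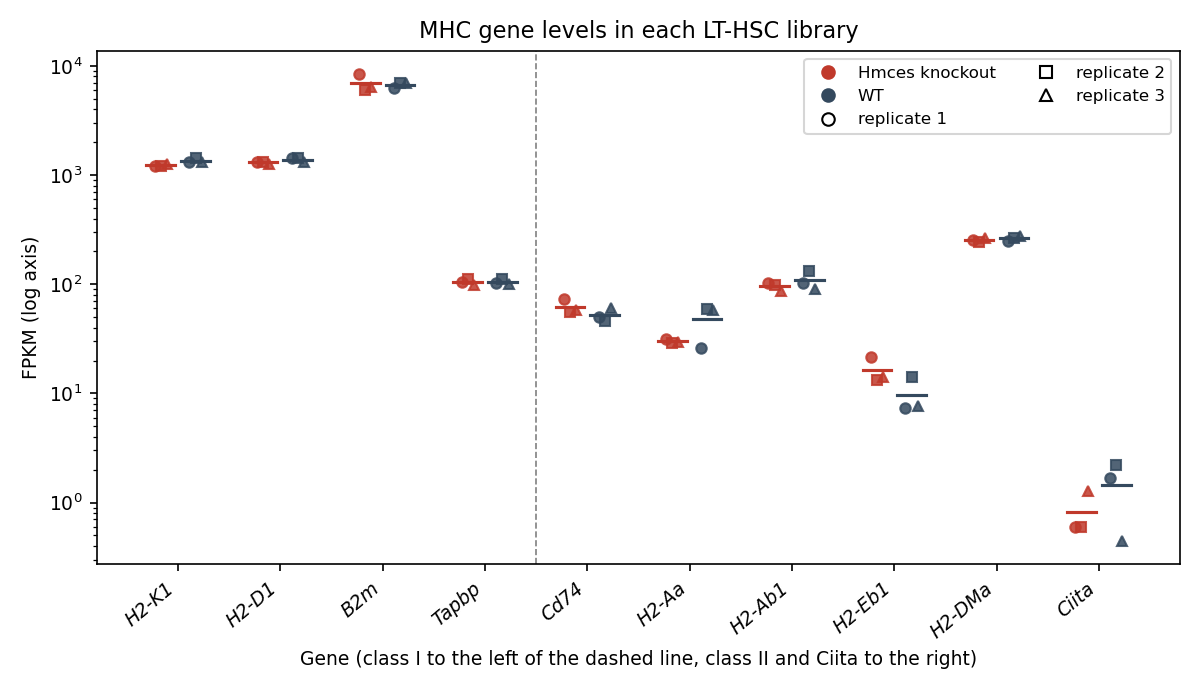
FPKM (log axis) of the 10 genes in each library, with Hmces knockout left of WT for each gene; points are libraries and bars are group means. *B2m* lies at 6002 to 8414 FPKM in knockout and 6289.9 to 7046 FPKM in WT libraries, the classical heavy chains between 1200.5 and 1435 FPKM, and *Ciita* between 0.445 and 2.19 FPKM over both groups.

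The classical heavy chains, which bind the peptide and are read by CD8 T cells, were the most even transcripts of the set. *H2-K1* was read at 1221, 1200.5 and 1273 FPKM in Hmces knockout libraries, against 1314, 1435 and 1313 FPKM in WT libraries. Every knockout library lay below every WT library, by a small margin. The mean was 1232 ± 37.5 FPKM in knockout and 1354 ± 70.2 FPKM in WT cells (SD, n = 3 each), a ratio of 0.910. The log2 fold change was -0.14 (SE 0.09, 95% interval -0.34 to 0.07; limma adjusted p = 0.683). *H2-D1* was read at 1328, 1314 and 1273 FPKM in knockout libraries, against 1426, 1432 and 1306 FPKM in WT libraries, and the groups overlapped. Its log2 fold change was -0.09 (SE 0.09, 95% interval -0.29 to 0.11; limma adjusted p = 0.779). The *H2-K1* to *H2-D1* ratio within a library was 0.914 to 1.0 in knockout and 0.921 to 1.01 in WT libraries, so the K and D transcripts were about equal in both genotypes.

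These heavy chains are close relatives, and reads could be split between them. In the GENCODE M21 transcripts, 0 of the 1470 stretches of 150 nt in *H2-K1*, the read length used, and 35 of the 1953 stretches in *H2-D1*, or 1.79%, occurred unchanged in a transcript of another gene. The other 8 members shared 0 such stretches. Only unchanged stretches were counted, so a count of 0 does not exclude that reads were split between near copies. *H2-Q6* and *H2-Q7* shared 5.99% and 9.68% of theirs, with each other or with *H2-Q5*, and are less certain. *H2-Q8* and *H2-Q9*, which also carry FPKM values, had no coding transcript to compare. The shares of *H2-Q6* and *H2-Q7* may therefore leave out sequence held in common with them.

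Beta-2 microglobulin, the light chain shared by all class I molecules, was the most abundant member and ranked 4 of all genes in the table by mean level. *B2m* was read at 8414, 6002 and 6436 FPKM in knockout libraries, against 6289.9, 7046 and 6910 FPKM in WT libraries. Knockout replicate 1 was the highest and knockout replicate 2 the lowest of all, so the groups overlapped. The mean was 6951 ± 1285 FPKM in knockout and 6749 ± 403 FPKM in WT cells (SD, n = 3 each), with a log2 fold change of 0.03 (SE 0.14, 95% interval -0.29 to 0.34; limma adjusted p = 0.969). Without knockout replicate 1 that change was -0.12, and it was -0.46 under quantile normalization, neither called. Per library, *B2m* stood at 2.39 to 3.30 times the summed FPKM of *H2-K1* and *H2-D1* in knockout and at 2.30 to 2.64 times in WT libraries.

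Tapasin, which bridges the empty heavy chain to the TAP transporter, was read at nearly the same level in both genotypes. *Tapbp* stood at 104, 112 and 97.9 FPKM in knockout libraries, against 103, 111 and 99.9 FPKM in WT libraries, a ratio of 1.0 with a 95% interval of the log2 fold change from -0.26 to 0.27 (limma adjusted p = 0.999).

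The class II chains were far below class I. *H2-Aa* and *H2-Ab1*, which encode the alpha and beta chain of the I-A molecule, summed to 117 to 134 FPKM in knockout and 128 to 192 FPKM in WT libraries. That was 5.25%, 5.02% and 4.61% of the summed *H2-K1* and *H2-D1* level in knockout libraries, against 4.68%, 6.68% and 5.72% in WT libraries. The mean share was 4.96% ± 0.321 in knockout and 5.69% ± 1.0 in WT cells (SD, n = 3 each), and the libraries overlapped.

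*H2-Ab1* was the most abundant class II chain in every library. It was read at 102, 97.6 and 87.6 FPKM in knockout libraries, against 102, 132 and 91.2 FPKM in WT libraries. WT replicate 2 was the highest and the groups overlapped, with a log2 fold change of -0.17 (SE 0.16; limma adjusted p = 0.775). It was -0.01 without WT replicate 2, -0.28 without WT replicate 3 and -0.10 without knockout replicate 3, none called.

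*H2-Aa* varied widely among the WT libraries. It was read at 31.7, 28.7 and 29.8 FPKM in knockout libraries, against 26.0, 59.2 and 58.5 FPKM in WT libraries. The knockout libraries lay close together, WT replicates 2 and 3 lay well above them, and WT replicate 1 was the lowest of all. The mean was 30.1 ± 1.5 FPKM in knockout and 47.9 ± 19.0 FPKM in WT cells (SD, n = 3 each), a ratio of 0.628. The log2 fold change was -0.56 (SE 0.30, 95% interval -1.27 to 0.14; limma adjusted p = 0.614). Without WT replicate 1 it was -0.95, with an adjusted p of 0.305, and over the 16 alternative fits that p lay between 0.305 and 0.860.

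*H2-Eb1*, the beta chain of the I-E molecule, differed in the other direction. It was read at 21.7, 13.4 and 14.2 FPKM in knockout libraries, against 7.29, 14.0 and 7.66 FPKM in WT libraries. Knockout replicate 1 was the highest and WT replicates 1 and 3 the lowest, but WT replicate 2 lay within the knockout range. The mean was 16.4 ± 4.59 FPKM in knockout and 9.66 ± 3.79 FPKM in WT cells (SD, n = 3 each), a ratio of 1.70. The log2 fold change of 0.73 (SE 0.31, 95% interval 0.02 to 1.44) had an unadjusted p of 0.0448 and an adjusted p of 0.536 in limma, and it stayed positive, between 0.53 and 1.01, over the 16 alternative fits. The alpha chain partner of I-E is not made in mice of the H2b haplotype carried by C57BL/6, and the table listed *H2-Ea-ps* at 0 in all 6 libraries. *H2-Eb2*, a less studied neighbour, did not exceed 0.640 FPKM in any library.

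The class II chains did not share one pattern across libraries. *H2-Ab1* stood at 2.94 to 3.40 times *H2-Aa* in knockout and at 1.56 to 3.93 times in WT libraries. It stood at 4.70, 7.30 and 6.18 times *H2-Eb1* in knockout libraries, against 14.0, 9.43 and 11.9 times in WT libraries. These last ranges did not overlap, and the ratio was chosen after its values were seen and was not tested.

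**Figure D2:**
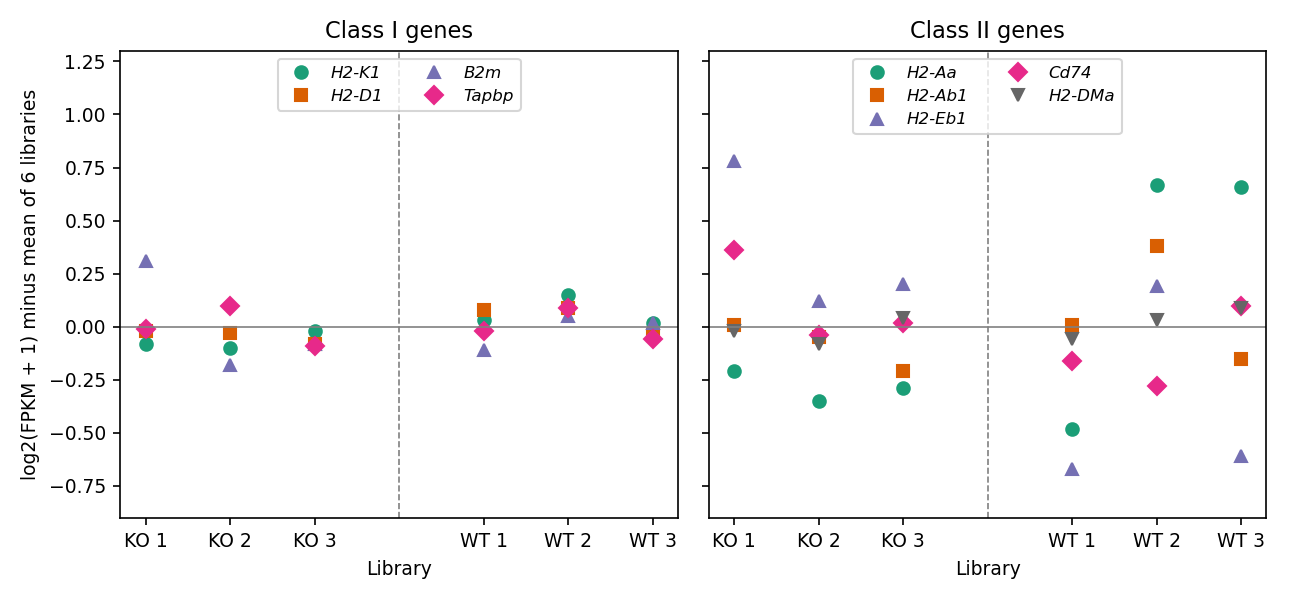
Deviation of log2(FPKM + 1) from each gene's mean over the 6 libraries, with Hmces knockout libraries (KO 1 to 3) left of WT libraries, class I genes in the left panel and class II genes in the right. Apart from *B2m* in knockout replicate 1 at 0.31, the class I genes stay between -0.18 and 0.15, whereas *H2-Aa* runs from -0.48 to 0.67 and *H2-Eb1* from -0.67 to 0.78.

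The invariant chain, which blocks the class II groove until the endosome, was read at 73.3, 55.2 and 57.8 FPKM in knockout libraries, against 50.6, 46.5 and 60.8 FPKM in WT libraries. *Cd74* was highest in knockout replicate 1 and the groups overlapped, with a log2 fold change of 0.23 (SE 0.17, 95% interval -0.15 to 0.62; limma adjusted p = 0.703). It was 0.11 without knockout replicate 1 and 0.15 without WT replicate 2, neither called. *Cd74* stood at 0.437 to 0.548 times the summed *H2-Aa* and *H2-Ab1* level in knockout and at 0.243 to 0.407 times in WT libraries. These ranges did not overlap, but the ratio was not a planned result and was not tested.

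*H2-DMa*, the alpha chain of the peptide exchange factor, was the most abundant class II pathway transcript among the members and nearly as even as the class I heavy chains. It was read at 256, 246 and 267 FPKM in knockout libraries, against 250.0, 266 and 277 FPKM in WT libraries, with a log2 fold change of -0.04 (SE 0.10, 95% interval -0.27 to 0.18; limma adjusted p = 0.915). It exceeded *H2-Ab1* 2.51 to 3.04 times in knockout and 2.01 to 3.04 times in WT libraries. Its partner *H2-DMb1* was lower, with *H2-DMa* at 4.35 to 6.22 times its FPKM in knockout and 5.65 to 6.36 times in WT libraries. *H2-DMb1* and *H2-DMb2* shared 5.74% and 5.40% of their stretches of 150 nt with each other. *H2-DMb1* had 49.9 ± 11 FPKM in knockout and 44.4 ± 2.63 FPKM in WT cells, and *H2-DMb2* had 3.45 ± 1.32 FPKM in knockout and 4.80 ± 0.767 FPKM in WT cells.

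*Ciita* was read at 0.601, 0.601 and 1.27 FPKM in knockout libraries, against 1.68, 2.19 and 0.445 FPKM in WT libraries. The highest value was in WT replicate 2 and the lowest in WT replicate 3, and the groups overlapped. On the depth estimate these levels correspond to 33 to 69 fragments in knockout and 37 to 167 fragments in WT libraries for the longest coding transcript of 6007 nt, and to fewer for a shorter one. The log2 fold change of -0.36 (SE 0.43) had a 95% interval from -1.35 to 0.62 (limma adjusted p = 0.815), an interval that covers both lower and higher levels in knockout cells. It was -0.13 without WT replicate 2, -0.70 without WT replicate 3, and -0.57 and -0.61 with pseudocounts of 0.1 and 0.01, none called.

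**Figure D3:**
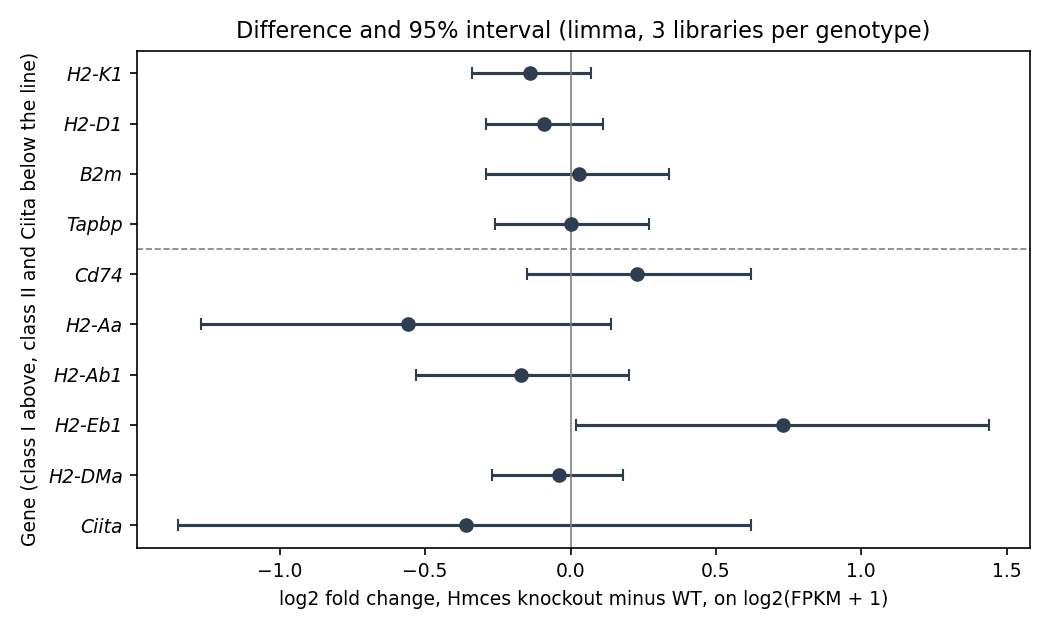
Log2 fold change of each gene (Hmces knockout minus WT, from log2(FPKM + 1)) with the 95% interval of the limma fit over 11532 genes. The intervals of *H2-K1*, *H2-D1*, *Tapbp*, *B2m* and *H2-DMa* stay within -0.34 and 0.34, those of *H2-Aa*, *H2-Eb1* and *Ciita* are wider, and that of *H2-Eb1* lies between 0.02 and 1.44.

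In both genotypes the order of levels began with *B2m*, the classical heavy chains and *H2-DMa*, and ended with *H2-Eb1* and *Ciita*. The ranges of *H2-D1* and *H2-K1* overlapped in both genotypes, as did those of *Tapbp* and *H2-Ab1*. *Cd74* lay above *H2-Aa* without overlap in knockout libraries, while in WT libraries their ranges overlapped and *Cd74* was higher in 2 of 3. All other neighbours in the order were apart. Over the replicates of a genotype the coefficient of variation was 2.17% to 18.5% for class I members in knockout and 5.13% to 5.97% in WT cells, and 4.01% to 28.0% for the class II members other than *Ciita* in knockout and 5.19% to 39.6% in WT cells.

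The genes whose levels followed *Cd74* most closely were *Cops2*, *Tax1bp3* and *Uqcrc2*, with root mean square differences of 0.043, 0.047 and 0.057 in centred log2(FPKM + 1) over the 6 libraries. For *H2-K1* they were *Pak1ip1*, *Pmf1* and *Stk17b*, with 0.026, 0.030 and 0.033. The search ran over 6708 genes with a mean of at least 10 FPKM, and each likeness is a description of these libraries. Among the members themselves *H2-K1* and *H2-D1* were nearest, at 0.06.

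Other genes of the pathway were not called either. Of 78 further genes in lists of antigen presentation, 63 were tested and 0 were called in either direction, against 0.113% of all genes tested. A count of 0 is thus near the background. Log2 fold changes were positive for 34 and negative for 29, with a median of 0.05. An unadjusted p under 0.05 was reached by 6 of them, against 9.16% of all genes. Knockout libraries lay wholly above WT libraries for 8 and wholly below for 2, against 7.47% and 8.34% of all genes.

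Of 21 non-classical class I heavy chain genes, 14 were tested, with 5 positive and 9 negative changes and a median of -0.12. They summed to 33.3% to 37.1% of the *H2-K1* and *H2-D1* level in knockout and to 33.4% to 34.4% in WT libraries. *H2-T23*, which encodes Qa-1, the ligand of the inhibitory receptor NKG2A, was the most abundant, at 336 ± 9.12 FPKM in knockout and 319 ± 6.37 FPKM in WT cells. *H2-T24* had the smallest p of all the pathway lists. It was read at 13.2, 17.1 and 13.9 FPKM in knockout libraries, against 5.82, 6.98 and 6.27 FPKM in WT libraries, a ratio of 2.32 without overlap. Its log2 fold change of 1.09 (SE 0.22) was not called (limma adjusted p = 0.218). *H2-M3*, which presents formylated peptides, had 54.9 ± 10.2 FPKM in knockout and 42.6 ± 2.86 FPKM in WT cells, and *H2-Q6* had 98.9 ± 10.2 FPKM in knockout and 117 ± 10.7 FPKM in WT cells (SD, n = 3 each; limma adjusted p = 0.588 and 0.611). *H2-Q7*, the near copy of *H2-Q6*, had 187 ± 25.3 FPKM in knockout and 221 ± 39.1 FPKM in WT cells.

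In peptide supply, 9 genes of the light chain and loading list and 5 of 6 immunoproteasome genes were tested, with medians of 0.03 and -0.11 and no calls. *Pdia3*, a disulfide isomerase of the loading complex, had 281 ± 29.2 FPKM in knockout and 292 ± 17 FPKM in WT cells. *Tap1*, a subunit of the peptide transporter, had 90.7 ± 14.3 FPKM in knockout and 107 ± 4.0 FPKM in WT cells, and *Tapbpl*, the tapasin relative that edits peptides, had 36.4 ± 4.31 FPKM in knockout and 29.4 ± 1.56 FPKM in WT cells. *Psmb8*, an immunoproteasome catalytic subunit, was read at 571, 466 and 522 FPKM in knockout libraries, against 577, 642 and 575 FPKM in WT libraries, without overlap (limma adjusted p = 0.613). Its activator gene *Psme1* had 516 ± 87.2 FPKM in knockout and 577 ± 43.3 FPKM in WT cells, and the catalytic subunit gene *Psmb10* had 115 ± 6.82 FPKM in knockout and 124 ± 7.4 FPKM in WT cells.

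All 5 tested class I-like genes had positive log2 fold changes, with a median of 0.38, beside 48.1% positive over all genes tested, and none was called. *Cd1d2* was read at 3.72, 6.85 and 9.99 FPKM in knockout libraries, against 1.88, 2.92 and 0.472 FPKM in WT libraries (limma adjusted p = 0.452). *Cd1d1*, which presents lipids to NKT cells, had 39.5 ± 5.46 FPKM in knockout and 30.3 ± 5.90 FPKM in WT cells, and *Fcgrt*, the neonatal Fc receptor gene, had 13.7 ± 1.91 FPKM in knockout and 9.09 ± 1.52 FPKM in WT cells (limma adjusted p = 0.601 and 0.535).

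**Figure D4:**
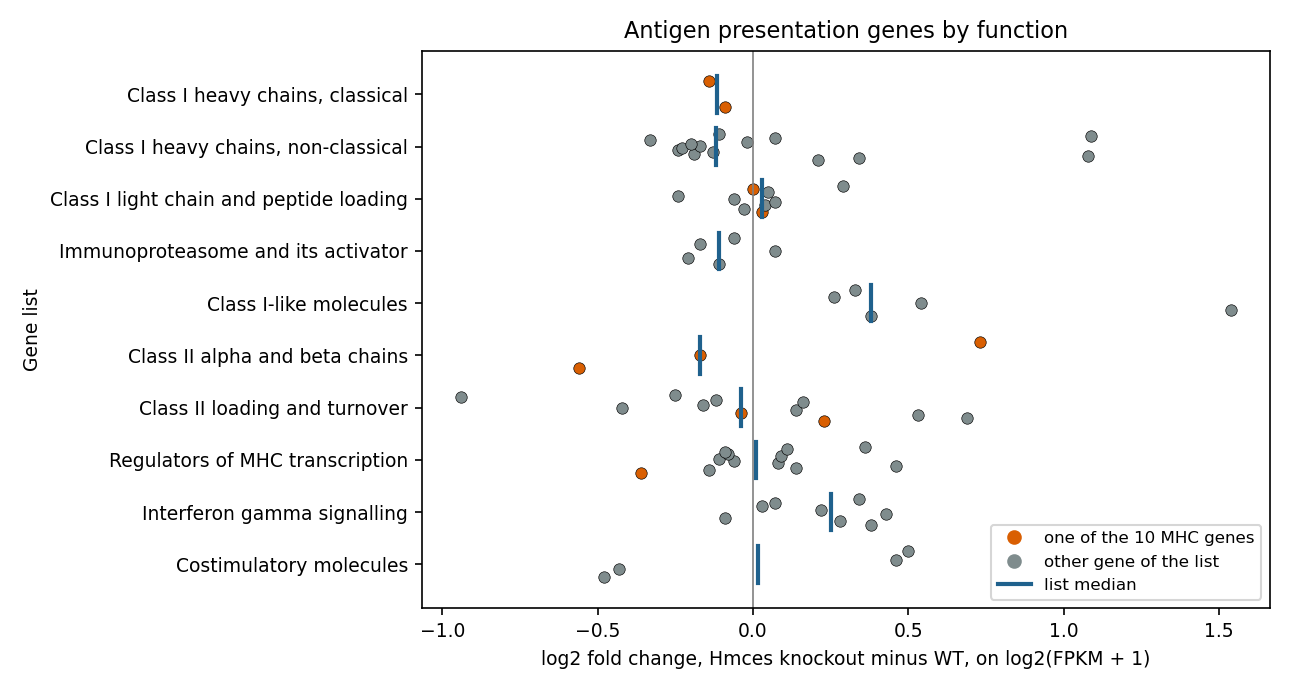
Log2 fold change, Hmces knockout minus WT, of each tested gene by list; orange points are members, grey points other genes and blue bars list medians. Medians run from -0.17 for the class II chains to 0.38 for the class I-like molecules, and the outermost genes are *Lgmn* at -0.94 and *Cd1d2* at 1.54.

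In class II loading and turnover, 11 of 12 genes were tested, 5 positive and 6 negative. The lysosomal proteases that cut the invariant chain and antigens had values in both directions, none called. *Ctsl*, for cathepsin L, was read at 30.5, 32.4 and 32.7 FPKM in knockout libraries, against 15.3, 21.4 and 22.2 FPKM in WT libraries (limma adjusted p = 0.385). *Ctss*, for cathepsin S, had 74.3 ± 15.7 FPKM in knockout and 50.7 ± 5.39 FPKM in WT cells (adjusted p = 0.492 in limma). *Lgmn*, for the asparaginyl endopeptidase legumain, had 5.12 ± 1.95 FPKM in knockout and 10.3 ± 1.37 FPKM in WT cells, without overlap (adjusted p = 0.486 in limma).

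Transcription factors of the shared module were read in both genotypes, some of them at low levels. *Rfxap*, for another RFX subunit, was at 3.26, 0.273 and 1.81 FPKM in knockout libraries, against 0.472, 2.83 and 0.286 FPKM in WT libraries. Of 12 tested regulators 0 were called, with a median of 0.01 and 6 changes in each direction. *Nlrc5*, the class I co-activator, had 8.45 ± 2.73 FPKM in knockout and 8.83 ± 1.75 FPKM in WT cells, several times the *Ciita* level in both. The RFX subunit gene *Rfx5* had 9.67 ± 4.57 FPKM in knockout and 9.91 ± 3.37 FPKM in WT cells, *Irf1* had 65.7 ± 9.75 FPKM in knockout and 59.9 ± 12.1 FPKM in WT cells, and *Irf2* had 19.4 ± 3.01 FPKM in knockout and 14.3 ± 5.20 FPKM in WT cells (SD, n = 3 each; limma adjusted p of at least 0.679 for all). Of 8 interferon gamma signalling genes tested, 7 had positive log2 fold changes, with a median of 0.25, beside 48.1% positive over all genes tested, and none was called. *Ifngr1*, the ligand-binding receptor chain, had 146 ± 15.2 FPKM in knockout and 119.9 ± 8.88 FPKM in WT cells without overlap, and *Irf9* had 64.8 ± 18.8 FPKM in knockout and 46.4 ± 2.95 FPKM in WT cells (limma adjusted p = 0.552 and 0.596). *Ifng* itself was listed at 0 in all 6 libraries. Of the costimulatory genes, *Cd40* was listed at 0 in all 6 libraries, *Cd80* did not exceed 0.559 FPKM, and *Cd274*, for the inhibitory ligand PD-L1, had 8.87 ± 3.20 FPKM in knockout and 12.5 ± 3.06 FPKM in WT cells (limma adjusted p = 0.673). *Icosl* had 3.38 ± 0.831 FPKM in knockout and 2.15 ± 0.237 FPKM in WT cells, and *Cd86* had 5.45 ± 3.9 FPKM in knockout and 6.94 ± 1.87 FPKM in WT cells.

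Markers of professional antigen-presenting cells were looked at beside class II. The 12 B cell and plasma cell markers summed to 67.2 to 793 FPKM in knockout and 63.3 to 175 FPKM in WT libraries, with 1 to 4 of them at 0 in knockout and 0 to 2 in WT libraries. Most of the highest sum was *Igj* (now *Jchain*) at 675 FPKM in knockout replicate 1, the library with the highest *H2-Eb1* and *Cd74*. *Igj* was next highest in WT replicate 3, at 83.8 FPKM, where *H2-Eb1* was 7.66 FPKM and *Cd74* 60.8 FPKM. Knockout replicates 2 and 3 held 0.0938 and 0.0564 FPKM of *Igj* with 13.4 and 14.2 FPKM of *H2-Eb1*. Without knockout replicate 1 the log2 fold change of *H2-Eb1* was 0.53, not called. Of the 7 tested B cell markers, 6 had positive log2 fold changes and none was called. The pre-B cell gene *Vpreb1* was read at 13.9, 27.9 and 4.37 FPKM in knockout libraries, against 1.46, 1.61 and 3.48 FPKM in WT libraries, without overlap (limma adjusted p = 0.389). The B cell receptor genes *Cd79a* and *Cd79b* were present in every library, *Cd79a* at 8.39 to 33.2 FPKM in knockout and 6.83 to 12.3 FPKM in WT libraries and *Cd79b* at 39.3 to 55.1 FPKM in knockout and 39.3 to 52.2 FPKM in WT libraries, while *Pax5* did not exceed 0.521 FPKM. The 12 dendritic cell markers summed to 270.3 to 355 FPKM in knockout and 287 to 389 FPKM in WT libraries, with 2 to 5 of them at 0 in knockout and 0 to 3 in WT libraries, and most of that came from *Bst2* and *Flt3*, which stem and progenitor cells express too. The low ones among the 12, *Itgax*, *Zbtb46*, *Xcr1*, *Clec9a*, *Cd209a*, *Siglech* and *Batf3*, together reached 0.999 to 5.12 FPKM in knockout and 1.55 to 3.28 FPKM in WT libraries. Of these, *Itgax* was at 0.876 to 1.93 FPKM in knockout and 0.055 to 0.238 FPKM in WT libraries. *Zbtb46*, *Xcr1* and *Batf3* had lower means in knockout cells. *Ly6d* was at 8.04 to 28.3 FPKM in knockout and 8.93 to 15.6 FPKM in WT libraries. *Clec10a* was at 1.51 to 10.2 FPKM in knockout and 1.84 to 7.27 FPKM in WT libraries, and *Ccr7* at 2.72 to 5.08 and 3.02 to 5.54 FPKM.

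The 14 macrophage and monocyte markers summed to 811 to 1233 FPKM in knockout and 724 to 788 FPKM in WT libraries, with 0 to 6 of them at 0 in knockout and 0 to 1 in WT libraries. Most of this was *Lyz2*, which granulocytes also express. All 14 were tested, 4 had positive and 10 negative log2 fold changes, and none was called. The monocyte gene *Ly6c2* was read at 150.3, 144 and 126 FPKM in knockout libraries, against 38.7, 11.6 and 13.0 FPKM in WT libraries, without overlap (limma adjusted p = 0.0702). *Fcna*, for ficolin A, was listed at 0, 1.52 and 0 FPKM in knockout libraries, against 4.98, 13.1 and 24.4 FPKM in WT libraries, also without overlap (limma adjusted p = 0.187). *C1qa*, a complement gene of mature macrophages, was listed at 0, 14.5 and 0 FPKM in knockout libraries, against 2.93, 12.9 and 19.6 FPKM in WT libraries. The WT libraries with more *C1qa* and *Fcna* were those with more *H2-Aa*, whereas knockout replicate 2 held 14.5 FPKM of *C1qa* with 28.7 FPKM of *H2-Aa*. The part of these cells in the class II values was not tested.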

How the data were processed

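RNA from sorted LT-HSCs had been amplified with Smart-seq2 and sequenced as paired reads of 150 bp, per the labels' protocols. The values are FPKM per gene as deposited by the authors, with a column for each library. TopHat2 2.1.1, Cufflinks 2.2.1 and build mm9 are listed, per the submitters' processing notes. Their annotation, options and strand use are not stated there. FPKM makes every level relative to the rest of its library.

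Genes with a mean of at least 1 FPKM over the 6 libraries were taken to log2(FPKM + 1) and compared by genotype in limma 3.58.1 (R 4.3.3) with a variance trend and no covariate. The two-sided tests were run with Benjamini-Hochberg adjustment over all 11532 genes, and called at an adjusted p under 0.05. Such a fold change understates the change of low genes. The series' design text speaks of duplicates, while the labels and the table hold 3 libraries per genotype, and all were used. The labels do not say whether libraries came from separate mice, so the p-values reflect the spread between libraries, which could be purely technical.

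Depth was estimated from 982 genes with 1 annotated transcript over 1500 nt and a mean under 1 FPKM, taking the commonest low value as 1 fragment and a fragment length of 200 nt. It covers counting error only. Transcript lengths and shared stretches came from GENCODE M21, promoters from RefSeq (GRCm38.p6). That build differs from the authors', so the coordinates printed are those of the reference sequences.

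Named were the 10 members, up to 3 genes with the smallest p in each list, genes that share sequence as pairs, defining markers of antigen-presenting cells, and the 3 genes most like *Cd74* and *H2-K1* above a mean of 10 FPKM. *H2-T23*, *Nlrc5*, *Rfx5*, *Rfxap* and genes named at or near 0 fall outside this rule and were chosen after their values were seen. *Cd48* and *Hmces* are in none of the lists and were named in addition. Alternatives changed the pseudocount, the filter, the scaling, the limma settings, the replicate block and the libraries kept. Members, lists and tests were chosen with earlier results of these data known. Values of some list genes are not reported here.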

Additional observations from a re-analysis of the deposited data

How the results depend on the processing

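Over 16 alternative fits none of the 10 members was called, with a smallest adjusted p of 0.305 among 159 values. *Ciita* could not be fitted with a filter at 5 FPKM. Signs turned only for *H2-D1*, *B2m*, *H2-DMa* and *Tapbp*. Under quantile normalization *H2-D1* was 0.04, *B2m* -0.46 and *H2-DMa* 0.02. Leaving out 1 library gave *B2m* -0.12 without knockout replicate 1 and -0.02 without WT replicate 1, and *Tapbp* -0.05, -0.01 and -0.03 without knockout replicate 2, WT replicate 1 and WT replicate 3. Over all such fits *B2m* lay between -0.12 and 0.13 and *Tapbp* between -0.05 and 0.05. The cause was not tested. With 1 library left out the class I median lay between -0.11 and -0.01, the class II median between -0.15 and -0.03, the difference in the class II to class I share (knockout minus WT, -0.733 percentage points) between -1.24 and -0.238, and the number of all genes called, 13, between 2 and 19. As *Cd74* in percent of *B2m* the share differed by 0.115 percentage points in the opposite direction. The number of genes called was 1 with no filter, 6 without the variance trend, 20 with robust estimation and 32 without small RNA genes. With the replicate number as a block it was 2, and no member was called. The numbers were not taken as pairs. Same-numbered libraries correlated at 0.0803, 0.0105 and 0.0352 in their deviations from the group means. Knockout and WT libraries of different number correlated at -0.0828 to 0.0484. These values are small and do not settle whether the libraries were paired. Precision is limited by 3 libraries per genotype and, for *Ciita*, by 33 to 167 estimated fragments.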
